A study of Mus musculus with 12 samples.

Results

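The regions described here are stretches of the mouse genome where peaks of PRDM16 and PRDM3 coincided away from H3K4me3 and away from NKX2-1. They were chosen by the peak lists themselves. A stretch had to be covered by peaks of both PRDM16 libraries over at least 20 bases on chromosomes 1 to 19, to overlap a PRDM3 peak, and to overlap no peak of any NKX2-1 or H3K4me3 library. Of 38668 stretches covered by both PRDM16 libraries, 2047 met this rule, which is 5.29% of them. They are called the regions without NKX2-1 below, and "distal" means only that no H3K4me3 peak overlapped.

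The assay was CUT&RUN: a nuclease tethered to an antibody on chromatin releases the DNA around the bound protein for sequencing. The cells were EpCAM-positive epithelial cells taken with magnetic beads from pooled lungs of wild-type C57Bl6 fetuses at E17.5 (embryonic day), with 100000 cells in each reaction. All libraries share this genotype, age and cell preparation and differ in the antibody. The groups were 2 PRDM16 libraries (replicate 1 with a rabbit antibody, replicate 2 with a sheep antibody), 1 PRDM3 library (rabbit), 3 NKX2-1 libraries (rabbit) and 3 H3K4me3 libraries (rabbit). There were also 3 IgG samples, which are not analysed here. The labels do not say whether replicates came from separate pools of fetuses, and no library lacks PRDM16, PRDM3 or NKX2-1 protein.

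PRDM16 and PRDM3 (the product of the gene Mecom, also called EVI1) are closely related zinc finger proteins with a PR domain. They act in chromatin with corepressors and other partners, and PRDM16 is best known for its part in brown fat, blood stem cells and craniofacial development. NKX2-1 is the homeodomain factor that specifies lung epithelium and is needed by alveolar type 1 (AT1) and type 2 (AT2) cells. H3K4me3 is a histone mark of active promoters. Sites without it are often enhancers, though the files hold no enhancer mark with which to tell.

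The files give positions and no bases, so sequence can be shown only where a region covers an annotated gene start. Windows from 250 bases before to 50 bases after a RefSeq gene start (GRCm38.p6, the assembly of mm10) overlapped 38 of the 2047 regions, in 39 windows of 22 protein-coding and 17 lncRNA genes. The windows printed are those of protein-coding genes whose 250 bases before the start lay wholly inside a region, a choice made after the values were seen. They show gene starts that carried PRDM16 and PRDM3 peaks and no H3K4me3 peak in these cells. Each is given 5′ to 3′ on the gene's strand, which is the plus strand in all of these, and ends at the base before the start. Capitals mark matches to the motifs spelled out further on.
Pla2g1b, chr5:115465892-115466141: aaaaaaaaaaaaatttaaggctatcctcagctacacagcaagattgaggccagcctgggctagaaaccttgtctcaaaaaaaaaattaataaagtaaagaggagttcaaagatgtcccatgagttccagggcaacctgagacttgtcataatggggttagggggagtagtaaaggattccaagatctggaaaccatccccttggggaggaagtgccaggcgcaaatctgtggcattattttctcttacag
Tcf7l2, chr19:55895071-55895320: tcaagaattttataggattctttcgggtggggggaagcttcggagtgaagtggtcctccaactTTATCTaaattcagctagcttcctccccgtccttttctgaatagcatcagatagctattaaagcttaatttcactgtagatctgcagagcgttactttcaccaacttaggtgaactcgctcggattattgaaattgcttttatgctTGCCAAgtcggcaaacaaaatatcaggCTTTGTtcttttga
Otop2, chr11:115322280-115322529: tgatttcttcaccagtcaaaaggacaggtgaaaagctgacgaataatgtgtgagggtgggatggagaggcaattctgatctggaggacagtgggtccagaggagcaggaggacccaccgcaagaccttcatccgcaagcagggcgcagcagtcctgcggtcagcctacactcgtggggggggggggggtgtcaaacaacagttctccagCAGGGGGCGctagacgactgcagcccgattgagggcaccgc
Plekha6, chr1:133245847-133246096: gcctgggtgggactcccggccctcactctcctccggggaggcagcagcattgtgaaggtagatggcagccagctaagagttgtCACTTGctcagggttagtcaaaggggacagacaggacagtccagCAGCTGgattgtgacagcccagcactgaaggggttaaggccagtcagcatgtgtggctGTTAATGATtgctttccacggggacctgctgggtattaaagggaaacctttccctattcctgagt
Tnfrsf9, chr4:150927749-150927998: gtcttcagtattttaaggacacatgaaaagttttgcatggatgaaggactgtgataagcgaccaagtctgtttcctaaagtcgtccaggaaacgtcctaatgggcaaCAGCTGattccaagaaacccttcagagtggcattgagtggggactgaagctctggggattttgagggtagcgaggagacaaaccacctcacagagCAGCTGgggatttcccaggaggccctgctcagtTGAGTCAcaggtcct
Gsta3, chr1:21240335-21240584: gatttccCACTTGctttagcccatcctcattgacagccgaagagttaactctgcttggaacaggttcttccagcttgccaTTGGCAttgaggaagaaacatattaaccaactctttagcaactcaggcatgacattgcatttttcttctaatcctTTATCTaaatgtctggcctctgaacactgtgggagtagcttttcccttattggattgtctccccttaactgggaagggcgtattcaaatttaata

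The peaks over these starts varied in height. Height is given throughout as the authors' fold enrichment of the highest overlapping peak, a ratio of the peak's signal to the background used by the peak caller, and is compared only within a library. At the start of Pla2g1b, which encodes a secreted phospholipase A2, fold enrichment was 6.37 in PRDM16 replicate 1, 4.67 in PRDM16 replicate 2 and 5.38 in PRDM3. The start inside Tcf7l2, a transcription factor that carries Wnt signals, had 4.30, 3.11 and 5.43 in the same order of libraries. Both regions were linked to the gene named, whereas the region over the start of Otop2, a proton channel gene, was linked to Ush1g and that over a start of Plekha6 to Gm19461. Otop2 had 5.02, 3.89 and 3.39, and Plekha6 had 4.30, 2.80 and 5.23. At Tnfrsf9, the gene of a T-cell costimulatory receptor, PRDM16 replicate 1 had 2.15, PRDM16 replicate 2 had 3.89 and PRDM3 had 4.75. Gsta3, a glutathione transferase gene, had 4.20, 3.89 and 3.27.

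One region held a whole annotated microRNA hairpin. Mir7680 lies on the minus strand at chr16:21256013-21256066, inside the region chr16:21255123-21256337, where fold enrichment was 5.97 in PRDM16 replicate 1, 4.63 in PRDM16 replicate 2 and 3.29 in PRDM3. Its mature form from RefSeq is shown because it is the only annotated mature microRNA found inside a region, with the seed (bases 2 to 8) in capitals.
mmu-miR-7680-5p: aUUCCAGUgaacaagcaguu

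The peak lists differed in length and strength. On chromosomes 1 to 19 there were 108677 peaks in PRDM16 replicate 1, 77421 in PRDM16 replicate 2 and 51128 in PRDM3, of which 44.9%, 45.1% and 42.6% had a q under 0.05. The NKX2-1 lists held 51586, 60419 and 76036 peaks, with q under 0.05 in 76.4% of replicate 1 but only 10.98% and 13.2% of replicates 2 and 3. Read depth cannot be read from peak lists. Peak names in the files carry either the letter C or the letter H. The C series is made up of both PRDM16 libraries, PRDM3, and the first NKX2-1 and H3K4me3 libraries, and the H series of the remaining NKX2-1 and H3K4me3 libraries. The epithelial identity of the cells was checked by H3K4me3 at gene ends. All 7 epithelial markers (Epcam, Cdh1, Krt8, Krt18, Cldn7, Nkx2-1 and Foxa2) carried the mark in each library, against 4, 3 and 1 of 6 mesenchymal, 2, 1 and 1 of 5 endothelial and 0 of 5 immune markers in replicates 1, 2 and 3.

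Of the 8861 distal regions with PRDM16 and PRDM3, 2047 lacked NKX2-1, or 23.1% (Wilson 95% interval 22.2% to 24.0%, counting error only). The other 6814 overlapped an NKX2-1 peak of at least 1 library. Among stretches with H3K4me3 the share without NKX2-1 was lower, at 399 of 11412 (3.50%). The number rests mostly on 1 NKX2-1 library. Replicate 1 overlapped 6413 of the 8861 regions (72.4%), replicate 2 1897 (21.4%) and replicate 3 2207 (24.9%), and 3546 regions (40.02%) were overlapped by replicate 1 alone. Without NKX2-1 replicate 1, 5593 regions would count as lacking NKX2-1 (63.1%), and with it as the only NKX2-1 library, 2448 (27.6%). Replicate 1 is the NKX2-1 library with the most peaks at q under 0.05 and the one of the same peak-name series as the PRDM libraries, and these cannot be told apart. The absence of NKX2-1 therefore means that no peak was listed, not that the protein was shown to be missing.

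The regions without NKX2-1 were lower and narrower than those with it. Their median fold enrichment in PRDM16 replicate 1 was 4.30 (quartiles 3.32 and 5.73, highest 33.7), against 5.73 in the regions with NKX2-1 and 3.50 in the 8324 distal PRDM16 regions with neither PRDM3 nor NKX2-1. In PRDM16 replicate 2 the medians were 3.89, 5.38 and 3.12 for the same sets, and in PRDM3 they were 3.58 in regions without and 4.38 in regions with NKX2-1. The median width was 342 bases (quartiles 233.5 and 508), against 614 bases with NKX2-1 and 244 bases with PRDM16 alone. The medians of PRDM16 height and of width thus lay between those of the other sets. The heights depend on NKX2-1 replicate 1. When it was left out, the regions then lacking NKX2-1 had medians of 5.02 in PRDM16 replicate 1, 4.63 in PRDM16 replicate 2 and 3.93 in PRDM3. Regions were chosen by overlap, and width and height move with it. When the overlap was read in 200 bases around the middle of every stretch, 28.0% lacked NKX2-1, and the part of height in that share was not tested.

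**Figure D1:**
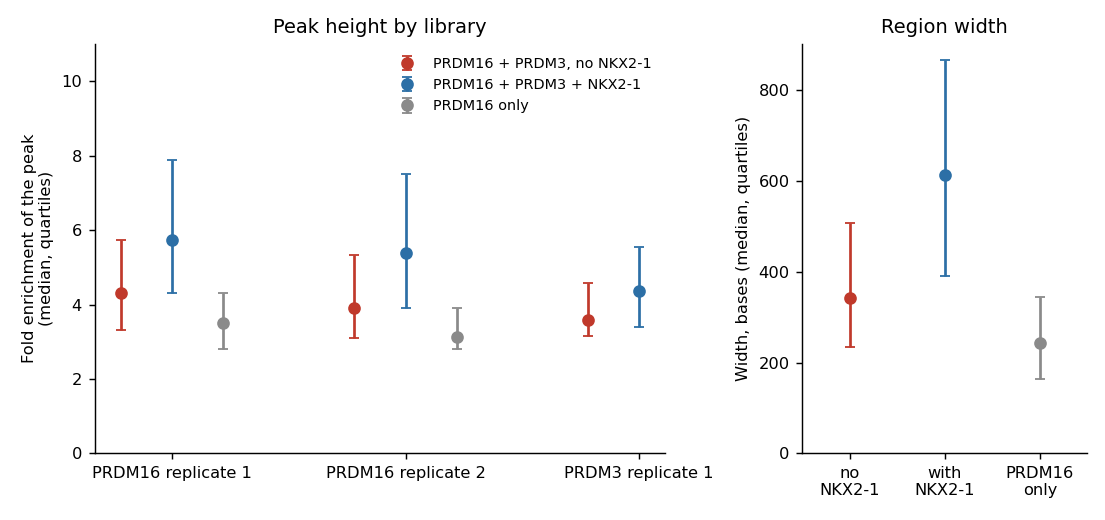
Left, fold enrichment of PRDM peaks in the 2047 distal regions without NKX2-1 (red), the 6814 with NKX2-1 (blue) and the 8324 with PRDM16 only (grey); right, width in bases. Points are medians and bars quartiles over regions, and the red points lie below the blue ones in all 3 libraries and in width.

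Few regions were strong in every library. A q under 0.05 was reached in PRDM16 replicate 1 by 78.5% of the regions without NKX2-1 (93.1% of those with NKX2-1), in PRDM16 replicate 2 by 68.2% (87.5%) and in PRDM3 by 51.7% (72.4%). In all 3 PRDM libraries together this held for 644 regions without NKX2-1 (31.5%) and 4254 with it (62.4%). At a −log10 q of at least 5 in all 3, it held for 28 (1.37%) and 1003 (14.7%). Heights in the libraries went together only weakly. Across the 2047 regions, Spearman's rank correlation was 0.0974 between the PRDM16 libraries, 0.157 between PRDM16 replicate 1 and PRDM3, and 0.145 between PRDM16 replicate 2 and PRDM3. In the 6814 regions with NKX2-1 these were 0.264, 0.388 and 0.286. Both sets were chosen on the presence of peaks in these libraries, which narrows the range, and fold enrichment takes few values in short peaks: 258 of the 2047 regions share a PRDM3 value of 3.39. The PRDM16 libraries differ in antibody (rabbit and sheep), so replicate and antibody cannot be told apart in their correlation. PRDM16 replicate 1 and PRDM3 were both made with rabbit antibodies.

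**Figure D2:**
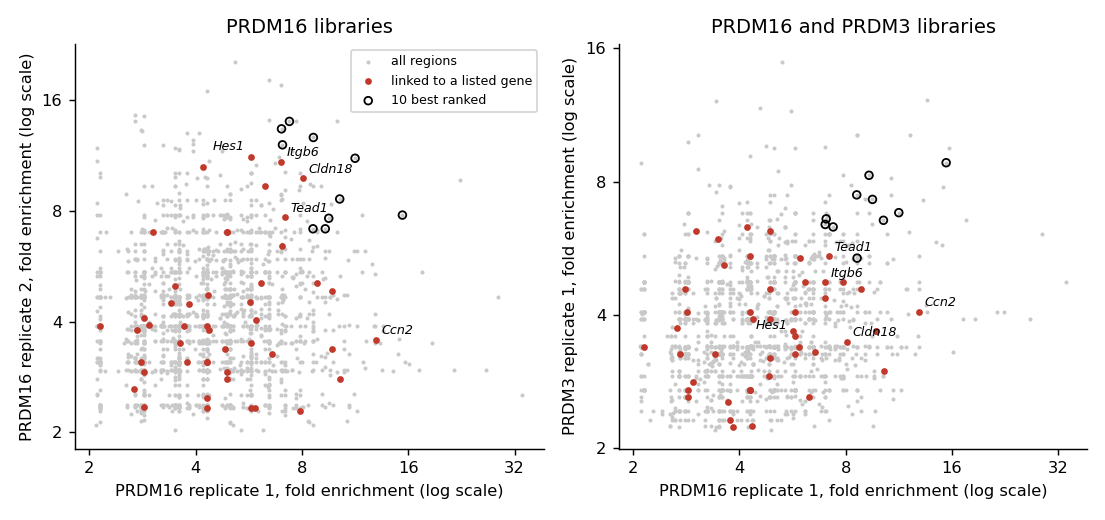
Fold enrichment of each of the 2047 regions in PRDM16 replicate 1 against PRDM16 replicate 2 (left) and PRDM3 (right), on log axes. Red points are regions linked to a gene of the 23 lists, open circles the 10 regions with the best mean rank, and the cloud shows no tight diagonal.

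Among distal PRDM16 and PRDM3 regions, those lacking NKX2-1 were mostly the low ones. In the lowest decile by PRDM16 replicate 1 fold enrichment, 430 of 886 (48.5%) lacked NKX2-1, and in the highest decile 53 of 887 (5.98%). By PRDM16 replicate 2 the shares were 37.9% in the lowest and 6.99% in the highest decile, with a maximum of 40.2% in the decile next to the lowest. By PRDM3 they were 37.5% and 5.07%, with ups and downs among the lower deciles. Equal values at a decile edge were divided by position in the genome, and the PRDM3 value 3.39 falls on both sides of such an edge. The share without NKX2-1 also varied by chromosome, between 18.25% on chromosome 12 (73 of 400) and 30.2% on chromosome 11 (169 of 559).

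**Figure D3:**
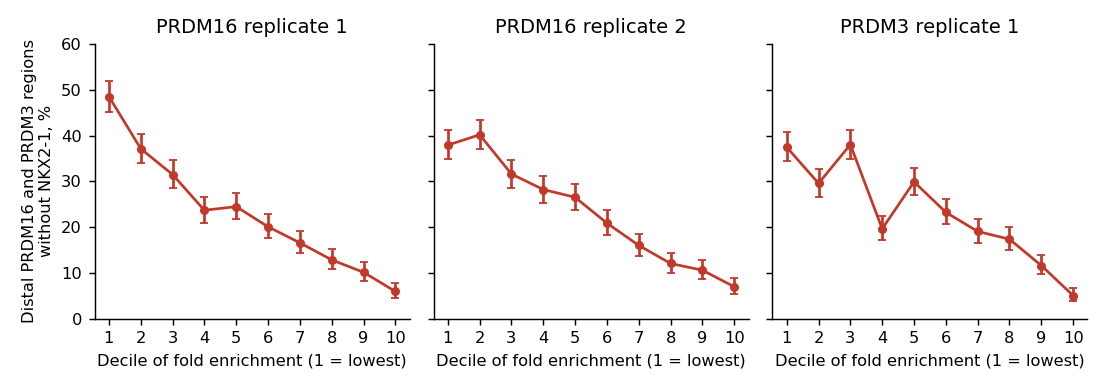
Share of distal PRDM16 and PRDM3 regions without NKX2-1 in deciles of fold enrichment, for each PRDM library; bars are Wilson 95% intervals. The share is 48.5%, 37.9% and 37.5% in the lowest decile and 5.98%, 6.99% and 5.07% in the highest. Equal values at a decile edge are divided by position in the genome.

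Summits, the highest points of the peaks, were looser in the regions without NKX2-1 than in those with it. The median distance between the summits of PRDM16 replicates 1 and 2 was 160 bases, against 114 bases in the regions with NKX2-1. In the distal PRDM16 regions with neither PRDM3 nor NKX2-1 it was larger, at 179 bases. Between PRDM16 replicate 1 and PRDM3 the distance in the regions without NKX2-1 was 157 bases, against 128 with NKX2-1. Between PRDM16 replicate 2 and PRDM3 it was 160 bases, against 122. All 3 summits lay within 100 bases of one another in 311 of the 2047 regions, a count not made for the other sets. Narrow regions can come from wide peaks that meet only at their edges: the median PRDM16 peak behind a region was 614 bases wide in replicate 1 and 564 in replicate 2. Regions are not wholly independent of each other, since 27 shared a PRDM16 replicate 1 peak, 32 a PRDM16 replicate 2 peak and 42 a PRDM3 peak with another region.

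Lacking an overlap, most regions still had a listed NKX2-1 peak within 10 kb, but only a minority had one within 1 kb. The NKX2-1 lists are long, and the share of arbitrary positions this close to a listed peak was not computed. The median gap to the nearest NKX2-1 peak of any library was 1850 bases (quartiles 367 and 4914), against 2194.5 bases for the distal PRDM16 regions with neither PRDM3 nor NKX2-1. An NKX2-1 peak lay within 100 bases of 207 regions (10.1%), within 1 kb of 768 (37.5%) and within 10 kb of 1832 (89.5%). The corresponding shares for PRDM16 regions without PRDM3 were 7.14%, 33.4% and 88.3%. At the edge of the rule, 2 regions directly adjoined an NKX2-1 peak, and 44 regions were left out for sharing only 1 to 20 bases with one. At the lower end of length, 25 regions were 20 to 39 bases long, and 22 stretches under 20 bases, the longest of 19, met the rest of the rule.

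**Figure D4:**
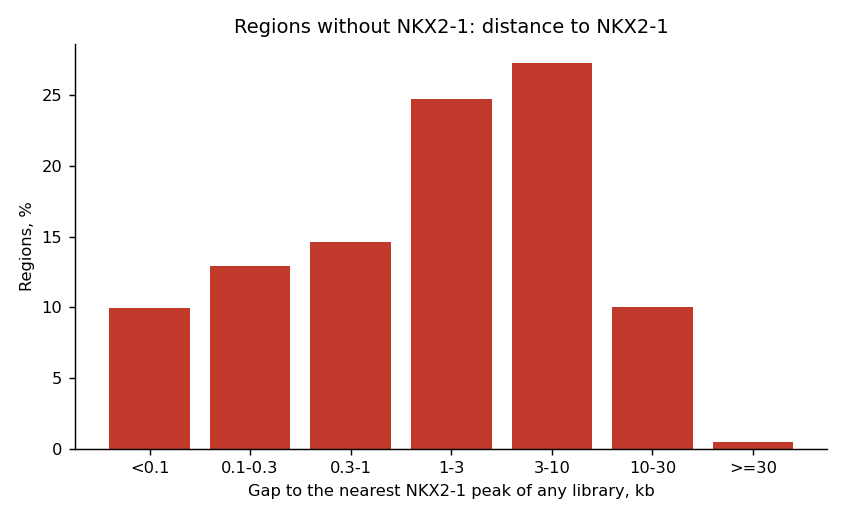
Gap between each of the 2047 regions and the nearest NKX2-1 peak of any library, in kb; bars are percentages of the regions. The bars from 1 to 3 kb (24.7%) and from 3 to 10 kb (27.3%) are the tallest, and 10 regions (0.489%) had no NKX2-1 peak within 30 kb.

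In their position relative to genes the regions differed little from the other distal sets. Inside a gene lay 62.7% of the regions without NKX2-1 (1283), 62.5% of those with NKX2-1 and 63.6% of those with PRDM16 alone, and inside a protein-coding gene 52.2%, 51.8% and 53.5%. Within 1 kb of an annotated start were 4.68%, 5.08% and 5.05%. The median gap to the nearest H3K4me3 peak was 27672 bases, against 29287.5 bases with NKX2-1 and 24404 bases with PRDM16 alone. Another region of the same kind lay within 50 kb of 30.8% of the regions without NKX2-1, against 59.7% and 59.3% in the larger sets, a share that also depends on the number of regions in a set.

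Links join a region to the gene with the nearest end, of any RefSeq biotype, within 50 kb of the region's middle. In all, 1823 regions (89.1%) were linked, to 1642 genes, at a median distance of 8319 bases. The farthest link spanned 49784 bases, while the 224 regions not linked lay 50046 to 341240 bases from a gene end, 152 of them inside a protein-coding gene. The nearest gene was protein-coding for 833 regions, a lncRNA for 709 and a pseudogene for 184. A link is a matter of position and says nothing of which gene a region acts on.

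The genes of the factors themselves were linked unevenly. Nkx2-1 had no region without NKX2-1 and none with it. Prdm16 had none without NKX2-1 and 3 with it. Mecom, which encodes PRDM3, had 3 regions without NKX2-1 and 2 with it. Its regions without NKX2-1 all lay inside the gene, between 20458 and 42341 bases from its 5′ end. Their fold enrichment was below the medians of the set in PRDM16 replicate 1 (3.71, 2.87 and 2.72) and in PRDM3 (2.54, 2.71 and 3.27). In PRDM16 replicate 2 it was near the median (3.89, 4.08 and 3.80). The first of these regions, at chr3:30467340-30467497, lay 41 bases from an NKX2-1 peak.

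The 10 regions with the best mean rank over the 3 PRDM libraries were mostly not linked to a protein-coding gene. The same held for the whole set, where 833 of 2047 regions were linked to one. The first, at chr9:106112474-106113321, had fold enrichment of 11.3, 11.1 and 6.81 in PRDM16 replicate 1, PRDM16 replicate 2 and PRDM3, 8399 bases from the pseudogene Gm9451 and 16069 bases from Col6a4, a collagen gene. The next, at chr6:65509885-65511090, had 15.4, 7.79 and 8.82 and was linked to the lncRNA LOC108169147. The third, at chr19:57174438-57175714, had 10.2, 8.61 and 6.54 and lay inside Ablim1, the gene of an actin-binding LIM protein, more than 50 kb from its ends. All of these were high in every library, unlike most of the set.

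Of the other 7 best ranked regions, 2 were linked to protein-coding genes. At chr6:135385121-135386440, 2607 bases beyond the 3′ end of Emp1 (epithelial membrane protein 1), fold enrichment was 7.38 in PRDM16 replicate 1, 13.997 in PRDM16 replicate 2 and 6.32 in PRDM3. Near the 3′ end of Rnf169, a ubiquitin ligase gene, it was 8.62, 12.7 and 5.38 at chr7:99920354-99920944. A region inside Grik4, which encodes a glutamate receptor subunit, had 8.60, 7.15 and 7.47 and an NKX2-1 peak 249 bases away. The rest were linked to Gm31668 (a lncRNA), Gm22236 (an snRNA gene, with the muscle LIM protein family gene Csrp2 at 7763 bases), Gm25514 (a pseudogene) and, at chr1:88638599-88640371, to no gene.

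The 28 regions with a −log10 q of at least 5 in all 3 PRDM libraries lay inside genes less often than the whole set. Only 8 of them lay inside a gene, a share of 28.6%, against 62.7% of all 2047, and 6 were linked to a protein-coding gene: Kif16b (a kinesin), E130308A19Rik, Emp1, Lactb (a mitochondrial enzyme), Trf (transferrin) and Cbx7 (a Polycomb subunit). This subset was cut from values used by the rule, so the difference is a description. Some of the 28 lie close together, among them those of the chromosome 17 cluster below. Position was not read at the same cut in the regions with NKX2-1. The region near Lactb, at chr9:66988546-66989798, held the highest PRDM16 replicate 2 value of the set, 20.3, beside 5.16 in PRDM16 replicate 1 and 8.45 in PRDM3, and lay 52 bases from an NKX2-1 peak. The highest PRDM16 replicate 1 value, 33.7, stood 998 bases beyond the 3′ end of Ttyh3, a chloride channel family gene, where PRDM16 replicate 2 had only 2.52 and PRDM3 4.75.

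A cluster on chromosome 17 combined very high −log10 q with moderate fold enrichment. Its 3 regions lay between 13587383 and 13655152 and were linked to the lncRNA genes 2700054A10Rik and Gm41530. The region chr17:13590337-13591559, linked to 2700054A10Rik, reached a −log10 q of 39.6 in PRDM16 replicate 1, 65.0 in PRDM16 replicate 2 and 261 in PRDM3, with fold enrichment of only 4.58, 6.25 and 11.7. The region chr17:13654614-13655152, linked to Gm41530, held the highest PRDM3 fold enrichment of the set, 14.9, with a −log10 q of 169. The third, 291 bases wide, had 3.44, 7.21 and 12.2 and a PRDM3 −log10 q of 79.3. In the other 25 regions of the 28 the PRDM3 −log10 q was at most 15.5. No list of regions prone to artefactual signal was used here, and whether these peaks are of that kind was not tested. They were singled out after their values were seen.

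Most linked genes had a single region. Of 1642 genes, 1483 had 1 region, 142 had 2, 13 had 3, 3 had 4 and 1 had 5. The last is Slc37a1, which encodes a sugar phosphate transporter of the endoplasmic reticulum. Its regions spread over the gene between 31306294 and 31326534 of chromosome 17. Fold enrichment across them was 9.63, 4.28, 5.93, 3.23 and 15.0 in PRDM16 replicate 1, 2.86, 6.30, 10.7, 6.999 and 3.26 in PRDM16 replicate 2, and 4.50, 4.05, 4.21, 2.49 and 5.76 in PRDM3. The region highest in PRDM16 replicate 1 was thus next to lowest in PRDM16 replicate 2. No distal PRDM16 and PRDM3 region with NKX2-1 was linked to Slc37a1, while 1 distal PRDM16 region with NKX2-1 and without PRDM3 was, and its NKX2-1 peaks numbered 3, 5 and 4 in replicates 1, 2 and 3.

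Other genes with several regions were Cfap58 and Ddx47 with 4 each and Fam83b with 3. Cfap58 encodes a protein of cilia and flagella, and 3 of its 4 regions lay side by side before its 5′ end, where they have the same PRDM16 replicate 1 value of 6.45. Equal values can come from a single peak under several regions, and regions that share a peak were counted separately in these numbers per gene. At Ddx47, an RNA helicase gene, PRDM16 replicate 2 had 12.2 and 10.9 at the regions outside the gene and 3.91 and 4.91 at those inside it. Fam83b had its best region by mean rank 3588 bases inside its 5′ end, with 5.02, 7.58 and 9.50 in PRDM16 replicate 1, PRDM16 replicate 2 and PRDM3. The genes Gm2420 (4 regions), Gm12304, Lncpint, 2610035D17Rik, Gm4221 and Mir3092 (3 each) completed the 10 genes with the most regions, and none of them codes for protein.

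The genes of 23 lists were then read against all protein-coding genes. Of 20665 protein-coding genes on chromosomes 1 to 19, 759 (3.67%) were nearest to a region without NKX2-1, 2082 (10.1%) to a distal PRDM16 and PRDM3 region with NKX2-1, and 2913 (14.1%) to a distal PRDM16 region with neither. When lncRNAs and other noncoding genes were set aside and each region was linked to the nearest protein-coding gene end, 1195 genes (5.78%) had a region without NKX2-1. The lists are small, so that 1 gene moves a share by several points, and no test was made on them.

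Hippo pathway and target genes, which relay cell contact and tension to the TEAD factors, had a region without NKX2-1 at 5 of 22 (22.7%), against 6 of 22 with NKX2-1. Among transcription factors, Tead1, a DNA-binding partner of YAP and TAZ, had 2 regions. The one at chr7:112912195-112913021, 5824 bases outside the gene, had fold enrichment of 7.17 in PRDM16 replicate 1, 7.70 in PRDM16 replicate 2 and 5.43 in PRDM3. The other, inside the gene, had 6.30, 9.35 and 2.62. Tead4 had 1 region inside the gene, with 4.30, 2.48 and 4.07, which directly adjoined an NKX2-1 peak.

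Upstream of TEAD, Mob1b, an adaptor of the LATS kinases, had a region at chr5:88711411-88711755, 9288 bases before its 5′ end, with 8.85, 5.09 and 4.58. Amotl2, an angiomotin that binds YAP, had a short one of 49 bases with 5.73, 2.33 and 4.07. The target gene Ccn2, which encodes a secreted matricellular protein, had the highest PRDM16 replicate 1 value of the listed genes. Its region chr10:24594126-24594391, 1184 bases outside the gene, had 12.9 in PRDM16 replicate 1, against 3.57 in PRDM16 replicate 2 and 4.07 in PRDM3. This lies above the upper quartile of the set in PRDM16 replicate 1, below the median in PRDM16 replicate 2 and above the median in PRDM3. Tead4, the fifth gene of the list, was named after its values were seen. With PRDM peaks at q under 0.05 only, 3 of these 22 genes had a region, and 1.11% of all protein-coding genes did.

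Integrin, laminin and matrix genes had a region without NKX2-1 at 5 of 26 (19.2%), against 8 with NKX2-1. Itgb6, a subunit of the integrin that releases active TGF-beta in epithelia, had the best of them by mean rank, with 7.003, 10.9 and 4.74 at chr2:60639284-60640605 inside the gene. Itga3, a laminin receptor subunit, had 5.93, 4.05 and 5.38 at chr11:95072949-95073296, 3722 bases inside its 5′ end. Of the laminin chains, Lamb1 had 4.85, 3.36 and 2.92, and Lamc1 had 2.15, 3.89 and 3.39. By mean rank over the 3 libraries these integrin subunit genes stood above these laminin genes, of which Lamc1 was named after its values were seen.

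Actin cytoskeleton genes had a region at 4 of 23 (17.4%), against 9 with NKX2-1, all 4 more than 10 kb from a gene end. Arhgef28, a guanine nucleotide exchange factor gene, had 10.3 in PRDM16 replicate 1, above the upper quartile of the set, but 2.80 in PRDM16 replicate 2 and 2.99 in PRDM3, below the medians. The exchange factor gene Arhgef12 had 4.30, 3.89 and 2.71, and Arhgap29, which encodes a GTPase-activating protein, had 4.30, 3.12 and 2.71. Linked to the nearest protein-coding end, 8 genes of this list had a region, with Actn4, Myh9, Rnd3 and Vcl added.

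Of 24 AT2 genes, 4 (16.7%) had a region without NKX2-1, against 10 (41.7%) with NKX2-1. For all protein-coding genes these shares were 3.67% and 10.1%. Lpcat1, an enzyme of surfactant lipid synthesis, had 2 before its 5′ end, with 3.49, 4.999 and 5.93 at chr13:73457645-73458149, 33 bases from an NKX2-1 peak, and 4.90, 2.92 and 3.20 at the farther one. Scd1, a fatty acid desaturase, had 5.91, 2.33 and 3.39, and Dlk1, a Notch ligand-like protein, 3.84, 4.45 and 2.24. Sftpb, which encodes surfactant protein B, had 2.85 and 2.92 in the PRDM16 libraries, below the medians of the set, and 4.07 in PRDM3, above it, at chr6:72315679-72316130, 1531 bases beyond its 3′ end. With PRDM peaks at q under 0.05 only, 1 AT2 gene had a region.

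Of 24 AT1 genes, 2 (8.33%) had a region without NKX2-1, against 10 with it. Cldn18, a tight junction claudin of AT1 cells, had 8.08, 9.80 and 3.48 at chr9:99729973-99730202, 12820 bases before its 5′ end and 4521 bases from the nearest NKX2-1 peak. Clic5, a chloride channel family member, had 7.89 in PRDM16 replicate 1, 2.28 in PRDM16 replicate 2 and 4.75 in PRDM3. Within a 10 kb link no AT1 gene had a region, against 2.19% of all protein-coding genes, which for a list of this size is less than 1 gene. Linked to the nearest protein-coding end, 5 of 24 (20.8%) had one, with Cyp2b10, Hopx and Igfbp2 added, against 5.78% of all protein-coding genes. Lung epithelial transcription factor genes had 2 of 27 (7.41%), against 8 with NKX2-1: Tead1, above, and Foxp4, a forkhead repressor, with 2 regions that share their PRDM16 replicate 1 value of 9.76 and PRDM3 value of 3.69.

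In the signalling lists the shares were near or somewhat above the 3.67% of all protein-coding genes, with 1 or 2 genes each. In the TGF-beta and BMP list 1 of 30 had one, against 7 with NKX2-1. In the Wnt list 2 of 32 did, against 9: the effector Tcf7l2, whose start inside the gene is printed above, and the ligand Wnt4, with 4.90, 2.80 and 4.58. Among Notch genes 1 of 22 did, against 2: Hes1, the classic target and a repressor, with 5.76, 11.2 and 3.58 at chr16:30052813-30054207, a stretch of 1395 bases. The FGF, EGF and RAS list had 2 of 27, against 7: the receptor Fgfr2, with 4.38, 3.80 and 3.93, and the ligand Fgf1, with 4.34, 4.74 and 2.25. Linked to the nearest protein-coding end, 6 of 30 TGF-beta and BMP genes and 6 of 27 FGF, EGF and RAS genes (22.2%) had a region, against 5.78% of all protein-coding genes. Of the genes named from these 4 lists, Hes1 alone had a PRDM16 replicate 2 value above 10.

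Epithelial junction and keratin genes had a region at 2 of 20, against 6 with NKX2-1. Cldn3, a claudin, had 7.005, 6.42 and 4.38 at chr5:134970918-134971400. In the PRDM family list 3 of 19 genes had a region, against 5: Mecom, Prdm1 (BLIMP1, a repressor of lymphoid and germ cell fates) with 3.62, 3.50 and 5.20, and Prdm12, a factor of sensory neurons, with 3.40, 4.50 and 3.27.

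For other cell types the counts were small. Airway secretory genes had 1 of 15 (Agr2, an endoplasmic reticulum enzyme of mucous cells, 12 bases from an NKX2-1 peak), against 4 with NKX2-1, and ciliated cell genes 0 of 18, against 4. Neuroendocrine genes had 1 of 16, against 2. Mesenchymal genes had 2 of 20 (Lum and Des), against 2, immune and blood genes 2 of 19 (Runx1 and Cd79a), against 2, and neuron genes 1 of 16 (Slc17a7), against 1. At Lum, a proteoglycan gene, fold enrichment was 4.20, 10.5 and 6.32, while the other 4 of these genes reached at most 3.91. None of the basal cell (10 genes), endothelial (18), liver (17), housekeeping (18) or brown fat PRDM16 target genes (16) had a region without NKX2-1, while 4 of the brown fat genes had one with it. At the 3.67% of all protein-coding genes, a list of any of these sizes would hold less than 1 such gene. Linked to the nearest protein-coding end, 1 brown fat gene (Ppara), 1 housekeeping gene (Ywhaz) and 1 ciliated cell gene (Rfx2) had a region, against 5.78% of all protein-coding genes.

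**Figure D5:**
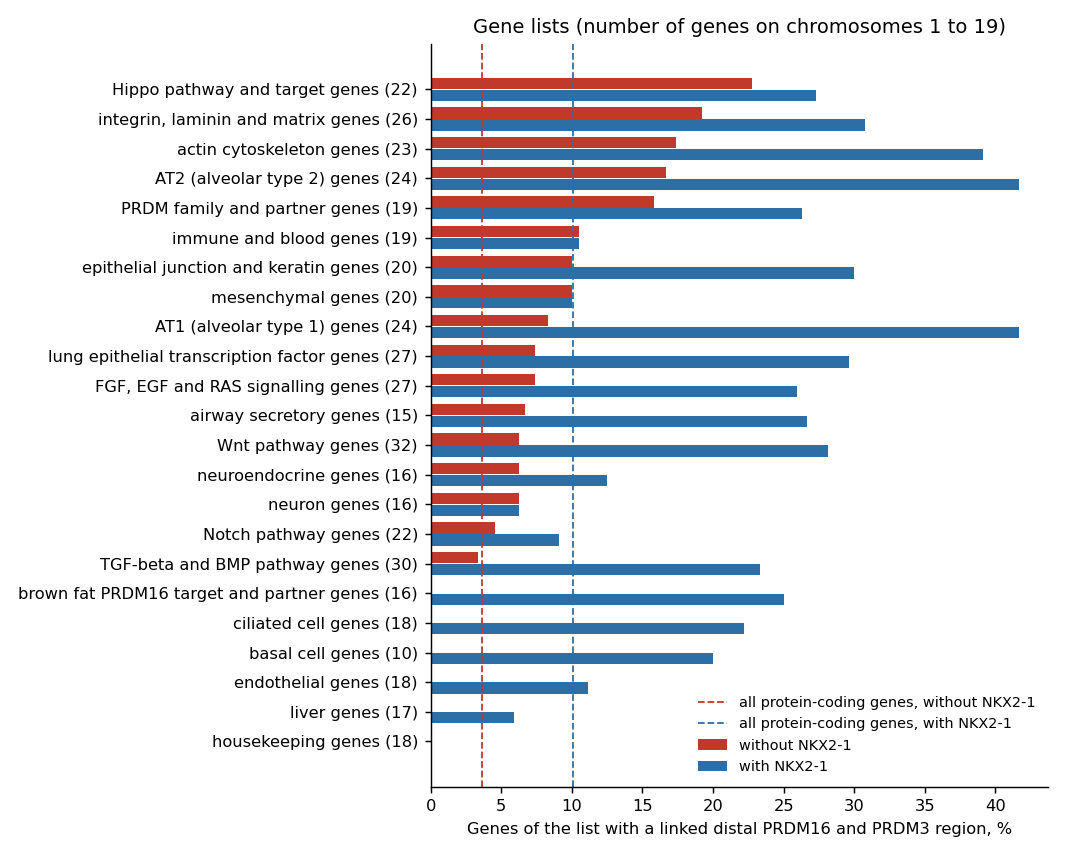
Percentage of the genes of each list with a linked distal PRDM16 and PRDM3 region without NKX2-1 (red) and with NKX2-1 (blue); dashed lines give the shares of all protein-coding genes, 3.67% and 10.1%. The red bars are at or below the blue ones in all lists and are longest for Hippo pathway genes, at 22.7%.

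These counts depend on the NKX2-1 library of the C series. Without NKX2-1 replicate 1, a region was linked to 8 of 22 Hippo, 7 of 26 integrin, laminin and matrix, 8 of 23 actin cytoskeleton, 9 of 24 AT2, 6 of 24 AT1 and 10 of 32 Wnt genes, and to 8.91% of all protein-coding genes. Many linked genes also had other factor regions. Of the 1642 genes linked to a region without NKX2-1, 676 (41.2%) were also linked to a distal PRDM16 and PRDM3 region with NKX2-1, and 705 (42.9%) to one with PRDM16 alone. At least 1 NKX2-1 peak of any library was linked to 744 of the 759 protein-coding genes (98.0%), against 87.0% of all 20665. Few genes were therefore near a region without NKX2-1 and free of NKX2-1 peaks.

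The ends of the linked genes carried H3K4me3 about as often as those linked to the other sets. In H3K4me3 replicate 1 the mark was present at 73.5% of the 759 protein-coding genes linked to a region without NKX2-1, against 73.2% of those with NKX2-1, 70.9% of those with PRDM16 alone and 60.2% of all protein-coding genes. In replicate 2 the shares were 70.8%, 70.2%, 66.8% and 57.3%, and in replicate 3 they were 68.2%, 68.2%, 64.3% and 55.7%. Genes can belong to more than 1 of these sets. The order was the same in all 3 libraries, with the first pair within 1 percentage point.

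Motifs could be searched only in the 39 gene start windows inside or over a region, on both strands of all 300 bases. The AP-1 letters TGANTCA were in 9 of 39 windows (23.1%, Wilson 95% interval 12.6% to 38.3%), against 19.8% of 212 windows over regions with NKX2-1, 9.80% of 153 over regions with PRDM16 alone and 7.84% of all 31396 windows. The GATA letters AGATAA were in 23.1%, 12.7%, 5.88% and 11.2% of the same sets. The NKX2-1 core CAAGTG was in 23.1%, 21.7%, 17.6% and 13.5%, and the TEAD letters CATTCC in 23.1%, 19.8%, 25.5% and 14.6%. The NFI motif TTGGCA was in 23.1%, 15.1%, 20.9% and 14.1%. Each of these was thus met in 9 of the 39 windows and has the same wide interval. It reaches the share of all windows for the NKX2-1 core, TEAD and NFI, and lies above it for AP-1 and GATA. These were 2 of 18 motifs searched, and no test was made.

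The remaining motifs also had shares whose intervals reach that of all windows, or were met in 2 windows or fewer. The KLF and SP letters GGGCGG were in 25.6% of the 39 windows, against 15.1%, 29.4% and 36.0% in the other sets, the SOX letters ACAAAG in 20.5%, against 25.5%, 12.4% and 18.6%, and the RUNX letters TGTGGT in 20.5%, against 20.8%, 22.9% and 16.7%. The E-box CAGCTG was in 15.4%, against 21.2%, 22.9% and 16.3%. The CTCF core CAGGGGGCG, which can overlap GGGCGG by its last bases, was in 1 of 39 windows, at Otop2 as printed above, and the HNF1 letters GTTAATNAT in 1, at Plekha6. FOXA (TGTTTAC) and the CRE (TGACGTCA) were in 1 window each and ETS (CCGGAAG) in 2. The letters GAAGATGAG, a site of the C-terminal fingers of MECOM, were in 0 of 39, against 0.401% of all windows, and GTCTAGAC (SMAD), TTGCGCAA (CEBP) and AACCGGTT (GRHL) were also in 0. The median GC content was 52.0% in these windows, against 50.7%, 52.7% and 53.0%. Such matches describe letters at gene starts and not the regions elsewhere.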

How the data were processed

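Peak lists of 9 of the 12 samples were used, 1 list per sample. Per the submitters' processing notes, Trimmomatic, Bowtie2, MACS2, HOMER and build mm10 were used, while versions and settings are not given in the sources used here, nor is whether a control library entered peak calling. The deposited fold enrichment (a ratio to background), −log10 p and −log10 q and the score of each peak are the authors' values, and the score was not used further. A q under 0.05 was read from the −log10 q.

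Peaks of each library were merged, both PRDM16 lists were intersected, and an overlap needed 1 base. Genes, gene starts and sequences came from RefSeq (GRCm38.p6), the gene starts without chromosome 18. Of 474 listed genes, 467 matched a protein-coding gene on chromosomes 1 to 19. Values describe regions, which are not replicates, so no test was made. Because the rule used every list, no paired comparison of replicates applies. The labels do not say whether replicates came from separate pools. Intervals are Wilson 95% intervals and cover counting error only, and read depth is unknown. Named genes are Nkx2-1, Prdm16 and Mecom, the 10 regions best by mean rank of fold enrichment over the PRDM libraries, the 10 genes with most regions and up to 4 genes per list, of which some are not reported here. The planned sequences of the best regions needed a genome, so gene starts are printed in their place. The members, lists and rules were chosen with earlier results of these data known. Interval code was tested on simulated data. Alternatives left out each PRDM16, NKX2-1 and H3K4me3 library, and changed peak strength, overlap, distance and links. Python 3.11.15, numpy 2.4.6, pandas 2.3.3, scipy 1.17.1 and matplotlib 3.10.9 were used.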

Additional observations from a re-analysis of the deposited data

Results flagged for a closer look

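The sex chromosomes lie outside the rule, and their peaks entered no comparison. On X and Y, 42 stretches otherwise met it, 37 on X and 5 on Y, among 107 distal PRDM16 and PRDM3 regions there. They stand out only as signal in data that were not otherwise used, and no control library was set beside them.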

How the results depend on the processing

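The number of regions without NKX2-1, their share of distal PRDM16 and PRDM3 regions (23.1%), their share inside genes and the number of linked genes were recomputed under the alternatives. Leaving out 1 library gave 2052 to 5593 regions, shares of 21.9% to 63.1%, 62.6% to 63.4% inside a gene and 1644 to 3866 genes. The count moved by over 1.5 times without NKX2-1 replicate 1 (5593), PRDM16 replicate 1 (3110) and PRDM16 replicate 2 (3888), and that of linked genes without NKX2-1 replicate 1 (3866) and PRDM16 replicate 2 (3029). PRDM peaks at q under 0.05 left 644 regions, 13.1% and 541 genes, and a −log10 q of 5 or more in every PRDM library left 28 regions, 2.72%, 28.6% inside a gene and 20 genes. Requiring no NKX2-1 peak within 1 kb left 1279 regions, 14.4% and 1062 genes. Excluding only by NKX2-1 peaks at q under 0.05 gave 32.3%, counting an overlap from 0.5 of the shorter interval 26.3%, and, chosen after seeing the data, overlap in 200 bases around the middle 28.0% and NKX2-1 replicate 1 as the only NKX2-1 library 27.6%. A link within 10 kb gave 980 genes. Each of these settings admits fewer or more peaks, or counts overlap or distance otherwise. Apart from the shares in the leave-out range, the other values of these results kept within 1.5 times or within the 95% interval, among them the share inside a gene in 16 of 17 settings. Of the median fold enrichments, 18 moved out of the main 95% interval and 31 did not. For the median distance to a gene end 2 moved and 15 did not, and for the share of all protein-coding genes 4 moved and 1 did not. Of 115 list counts under other links, peaks or NKX2-1 libraries, 61 moved by over 1.5 times. Between 9 and 10 of the 10 best ranked regions overlapped a region under every setting that changes regions. This was largely set in advance, since these regions were ranked by height in the same PRDM lists. Leaving out an NKX2-1 or H3K4me3 library can also only add regions. The motif window of 100 bases around summits was not run, since it needs a genome sequence. No paired analysis was possible because the results come from no test between groups. Read depth is unknown, and IgG libraries were not analysed here.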
